A study of Rattus norvegicus with 12 samples.

Results

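The comparison described here set oligodendrocyte precursor cells (OPCs) exposed to a cytokine cocktail against OPCs left untreated, the groups CTK-2 and CTL. Its members were the 6 libraries of these groups out of 12 in the series, chosen by their labels, and the 13348 genes with a mean of at least 5 counts over the 12 libraries, out of 30562 genes in the count tables. The cells came from the cortex of newborn wild-type Sprague-Dawley pups of both sexes. They were shaken off mixed glial cultures, a step that enriches OPCs without making them pure. CTK-2 received IFN-γ, IL-1β and TNF-α, each at 2 ng/mL, when the cells were moved to differentiation medium, and CTL received none. Both groups received the vehicle DMSO in place of galinex, an agonist of the receptor GPR17 that the other 6 libraries received at 10 nM after 6 h (GAL without and CTK2+GAL with the cytokines), and RNA was taken 24 h after that addition. Each group had 3 replicates. The labels do not say whether the 3 came from separate preparations, so the p-values measure the spread between these libraries, which may be technical.

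OPCs divide, carry proteoglycans such as NG2 on their surface and mature into the oligodendrocytes that wrap axons in myelin, a membrane rich in cholesterol and galactolipids. IFN-γ acts through the kinases JAK1 and JAK2 on genes that carry GAS elements, and the IRF factors made in response bind interferon-stimulated response elements (ISREs). TNF-α and IL-1β act mainly through NF-κB, which binds κB sites. The genes these routes switch on include chemokines, guanylate-binding proteins and the machinery that loads peptides on MHC class I molecules.

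The CTL libraries held 5207182 to 6169733 counts and the CTK-2 libraries 4718825 to 5475929. Markers of OPCs were well counted in CTL, among them Pdgfra, the PDGF receptor, at 388 to 442 CPM, and Ptprz1, a receptor phosphatase, at 1725 to 1909 CPM (CPM is a count scaled to the library size after TMM normalization). CTL 3 stood apart from CTL 1 and CTL 2. The 38 interferon-stimulated genes with a symbol, out of 52 in the list, summed to 215 CPM in CTL 1, 235 in CTL 2 and 837 in CTL 3, against 6188, 6410 and 6291 CPM in the CTK-2 libraries. The log2 fold change of some genes in which CTL 3 stood apart is therefore also given without it. For others only the levels of the single CTL libraries are given.

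Symbols are known only for genes that the study itself had called in this comparison, so 1779 of the 13348 tested genes can be named. A count of named genes in a list therefore shows the direction of genes already called, and members that the study did not call are absent from it. Of these 1779 genes 65.1% were higher and 32.9% lower, and the count of a list is to be read against these shares.

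The cytokines changed more genes by a little than by much. Genes were placed in 5 classes by the quasi-likelihood test of edgeR, adjusted by Benjamini-Hochberg. With an adjusted p ≤ 0.05 and a log2 fold change ≥ 0.59 in size, 1538 genes were higher (11.5% of those tested) and 773 lower (5.79%) in CTK-2. Another 1104 genes (8.27%) passed the adjusted p with a smaller increase and 1798 (13.5%) with a smaller decrease. The remaining 8135 genes (60.9%) did not pass. The large class was mostly increases, with 66.6% of its genes higher. Small changes were mostly decreases, with 38.0% of them higher.

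Reads moved between these classes. The genes called higher took 3.80% of all counts of tested genes in CTL and 10.7% in CTK-2. Genes with small decreases fell from 32.6% to 26.5% of the counts, a larger shift than that of the genes called lower, which fell from 9.54% to 5.18%. Small increases went from 10.4% to 13.4%, and genes that did not pass held 43.7% and 44.2%. The classes were called on these same libraries, so the direction of each shift follows from the calls and only its size is described. The values are shares of a fixed total, so a share can fall without fewer molecules per cell.

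Libraries of the 2 groups did not overlap in 6550 of the 13348 genes, 25.2% with every CTK-2 library above every CTL library and 23.8% with every CTK-2 library below. This held for 98.6% of the genes called higher and 97.8% of those called lower. It also held for 95.7% of the small increases, 96.0% of the small decreases and 18.4% of the genes that did not pass. These classes were called on the same libraries, so the shares describe the calls and do not test them.

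The share of genes called depended on how many reads a gene received. Tested genes were ordered by mean log2 CPM over the 12 libraries and cut into 10 bins of equal size, an order that favours long transcripts since CPM is not divided by length. In the lowest bin (median of the geometric mean 1.56 CPM), 19.3% of the genes were higher and 3.22% lower, and no small change passed the test. In the highest bin (median 262 CPM), 5.02% were higher and 8.16% lower, while 12.9% had a small increase and 36.3% a small decrease. The genes passing the adjusted p rose from 22.5% to 62.4% between these bins.

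**Figure D1:**
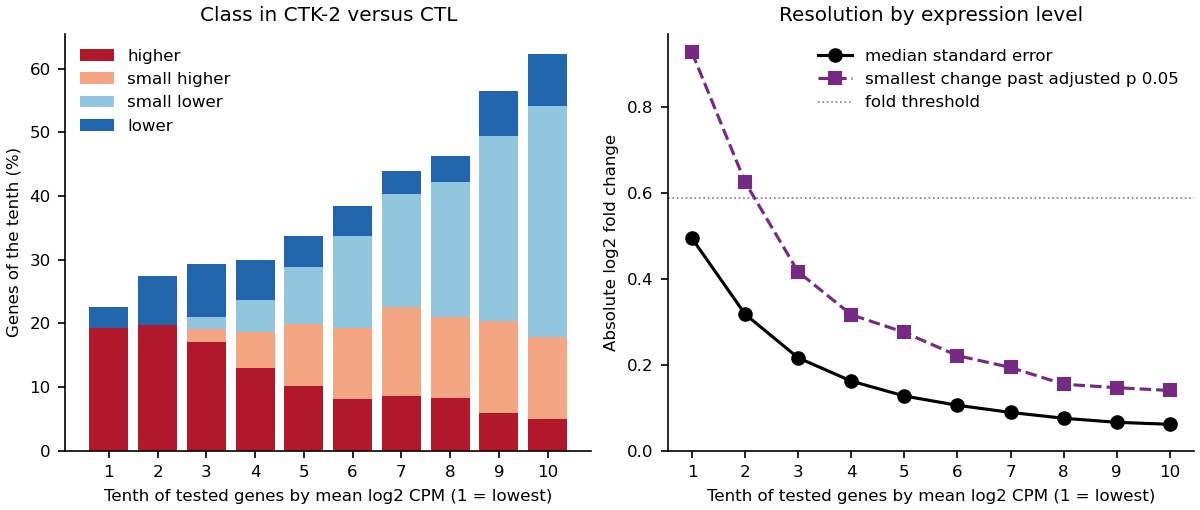
Left, the percentage of genes in each class of CTK-2 versus CTL by bin of mean log2 CPM, from bin 1 (lowest) to bin 10. Right, the median standard error and the smallest absolute log2 fold change that passed the adjusted p in each bin, with the fold threshold of 0.59 dotted. The share called higher fell from 19.3% to 5.02% as counts rose, and small decreases grew from 0 to 36.3%.

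The resolution followed the counts. The median standard error of the log2 fold change was 0.50 in the lowest bin and 0.062 in the highest, and the smallest change that passed was 0.93 and 0.14. In the lowest 2 bins no change under 0.59 passed, and changes of that size were not detectable there at this depth. The median log2 fold change of all genes in a bin went from 0.28 in the lowest to -0.12 in the highest, and 29.7% of the genes in the lowest bin but 4.27% in the highest differed at least 2-fold. Genes entered the test through their mean over all 12 libraries, so a gene nearly silent in CTL was tested only if other libraries raised it. Of the genes called higher 293 had a mean under 1 CPM in CTL, and of those called lower 37 had one under 1 CPM in CTK-2. This filter bears on the excess of increases in the lowest bins, and its part was not tested.

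The gene with the smallest adjusted p in each direction shows what a bin held. Among rarely counted genes these were strongly induced or nearly lost. RT1-Bb, an MHC class II gene in the lowest bin, had 0 counts in each CTL library and 12.8, 14.5 and 13.2 CPM in CTK-2, at least 76.6-fold higher taking 3 counts over the group as the floor. Slc27a6, a fatty acid transport gene, had 5.16, 3.58 and 4.05 CPM in CTL against 0.418, 0.545 and 0.185 CPM in CTK-2. Its log2 fold change was -3.41 (adjusted p = 6.2e-05, standard error 0.55), and the groups did not overlap.

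Acot1, an acyl-CoA thioesterase in bin 5, stood at 5.51, 5.17 and 6.49 CPM in CTL against 74.7, 80.9 and 70.4 CPM in CTK-2 (log2 fold change 3.70, standard error 0.12). Adora1, the adenosine A1 receptor gene in bin 8, was 49.0, 48.7 and 47.5 CPM in CTL against 164, 160 and 152 CPM in CTK-2. This increase of 1.71 on the log2 scale had a standard error of 0.057, and CTL 3 lay at the low end of CTL. Gramd2b, a lipid-binding protein gene, was the leading decrease of bin 5, from 58.3, 65.6 and 47.8 CPM to 7.74, 11.8 and 9.63 CPM (log2 fold change -2.54, standard error 0.15).

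The highest bin was led by a motor protein gene and a surface proteoglycan gene. Kif21a, a kinesin motor, was 550, 496 and 483 CPM in CTL against 129, 135 and 143 CPM in CTK-2 (log2 fold change -1.91, adjusted p = 3.7e-13, standard error 0.066). Cspg4, which encodes the NG2 proteoglycan of OPCs, was 127, 122 and 158 CPM in CTL against 567, 508 and 561 CPM in CTK-2 (log2 fold change 2.00, standard error 0.094). Its 3 CTK-2 libraries lay far above CTL 3, the highest untreated library.

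The calls with the highest mean CPM over the 12 libraries were examined next. Among the 10 most counted decreases with a symbol were membrane, matrix, cytoskeletal and lipid genes. Nfasc, a neurofascin of axon-glia contacts, had 3180, 3379 and 2971 CPM in CTL against 1482, 1523 and 1550 CPM in CTK-2, and Tubb4a, a tubulin of oligodendrocytes, had 1574, 1869 and 1535 against 777, 888 and 826 CPM. Dynll2, a dynein light chain, fell by 1.35 on the log2 scale (standard error 0.067) and Sema5a, a semaphorin, by 1.03 (standard error 0.051). Vcan and Tnr, matrix proteins of OPCs, had log2 fold changes of -0.90 and -0.64. Scd2, Hmgcs1 and Atp5f1b were also among the 10.

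Atp5f1b, the β subunit of mitochondrial ATP synthase, sat at the edge of the call. It had 1048, 1128 and 993 CPM in CTL against 665, 723 and 681 CPM in CTK-2, groups that did not overlap. Its log2 fold change of -0.61 (standard error 0.059) moved to -0.56 without CTL replicate 2, -0.59 without CTK-2 replicate 1 and -0.58 without TMM, and the fold threshold was no longer met in any of the 3.

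Among the 10 most counted increases with a symbol were immune genes that were low in CTL 1 and CTL 2 and genes well counted in every CTL library. Ifi47, an interferon-induced GTPase, had 0, 0 and 41.7 CPM in CTL against 1558, 1678 and 1554 CPM in CTK-2. Rnf213, a large ubiquitin ligase, had 37.3, 34.2 and 188 CPM in CTL against 2049, 2031 and 2136 CPM in CTK-2 (log2 fold change 4.57, and 5.86 without CTL 3). CTL 3 held the highest untreated level of both, and B2m, described with CTL 3, was a further one.

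Ptprz1 rose from 1909, 1725 and 1885 CPM to 2921, 2779 and 2915 CPM (log2 fold change 0.64, standard error 0.047). Sox8, a glial transcription factor, had a log2 fold change of 0.65, Pdgfra one of 0.76 and Tspan7, a tetraspanin, one of 0.81. The groups were apart in each of these genes.

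Dclk2, a doublecortin-like kinase, and Myt1, a zinc finger factor of oligodendrocyte progenitors, rose more. Myt1 had 329, 301 and 532 CPM in CTL against 1262, 1145 and 1293 CPM in CTK-2, so that CTL 3 lay between CTL 1 and CTL 2 and the treated libraries. Its log2 fold change was 1.67 (standard error 0.15) and 1.97 without CTL 3. Dclk2 showed the same arrangement, with 245, 244 and 400 CPM against 1164, 1116 and 1174 CPM (log2 fold change 1.96, and 2.24 without CTL 3).

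Small changes were the larger class and were seen again in libraries that the contrast of CTK-2 and CTL does not compare. Those libraries did enter the mean-count filter, the TMM normalization and the dispersion estimate behind the call. CTK2+GAL versus GAL repeats the cytokine contrast in the 6 libraries with galinex, which share no library with CTL or CTK-2. Of the small increases, 99.1% had the same sign there and 73.6% also passed the adjusted p in that direction. For the small decreases the values were 99.3% and 78.3%. Genes that did not pass in CTK-2 versus CTL had the same sign in 73.8%, and all tested genes in 83.7%.

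The median small increase was 0.37 on the log2 scale, or 1.29-fold, with a median standard error of 0.084. The median small decrease was -0.35, or 1.27-fold, with 0.075. Such changes were seen in well-counted genes, with a median of 49.8 CPM in CTL for the increases and 95.2 CPM for the decreases, against 6.33 CPM for the genes called higher. Even between 0.15 and 0.30 on the log2 scale, 622 of 1693 decreases passed the adjusted p, and 619 of the 622 had the same sign with galinex. For increases of that size, 351 of 1403 passed and 346 kept their sign. All 12 libraries shared 1 estimate of the dispersion, which both contrasts used.

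**Figure D2:**
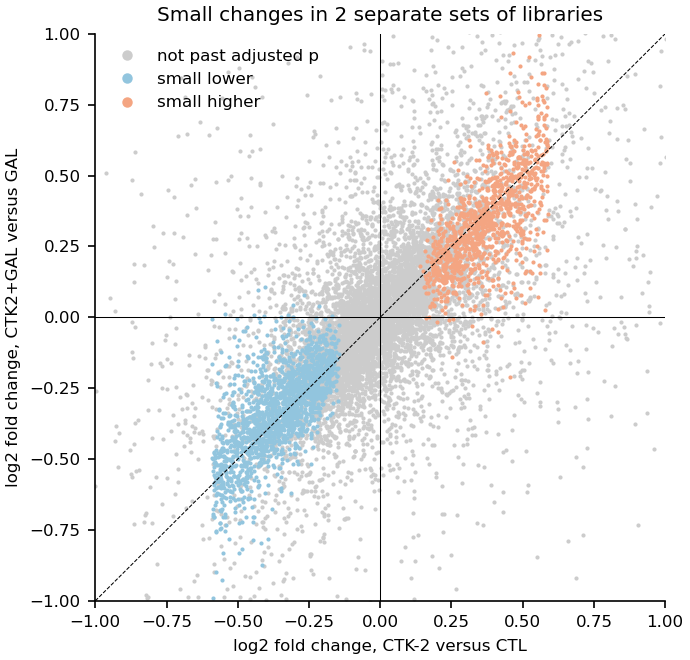
Each point is a gene, with the log2 fold change of CTK-2 versus CTL on the horizontal axis and that of CTK2+GAL versus GAL on the vertical axis. Small increases and small decreases lie along the dashed line of equal change, with 99.1% and 99.3% on the same side of 0 in both, and 296 genes outside the axes are not drawn.

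Just under the fold threshold with all libraries, 35 small changes had a symbol, all of them increases that the study had called with its own estimate. The 10 with the smallest adjusted p include genes of astroglial and neural metabolism and signalling. Glul, glutamine synthetase, had 158, 172 and 149 CPM in CTL against 239, 234 and 238 CPM in CTK-2 (log2 fold change 0.57, adjusted p = 3.9e-07, standard error 0.060). Pygb, the brain glycogen phosphorylase, had 76.2, 81.1 and 80.3 CPM in CTL against 120, 113 and 121 CPM in CTK-2. In both genes the treated libraries lay above every untreated one, and CTL 3 was the lowest CTL library for Glul.

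Oxr1, an oxidation resistance gene, had 46.1, 47.7 and 50.6 CPM in CTL against 70.7, 73.8 and 72.3 CPM in CTK-2. Rbfox2, a splicing regulator, ranged from 102 to 113 CPM in CTL and from 150 to 170 CPM in CTK-2. The others were Anks1b and Asic1, a postsynaptic scaffold and an acid-sensing channel, Galnt2, a glycosyltransferase, Parp8, Pde4b, a cyclic AMP phosphodiesterase, and Slc8a3, a sodium-calcium exchanger, with log2 fold changes from 0.57 to 0.59. With galinex the 10 genes had log2 fold changes between 0.53 and 0.76. Their place under the fold threshold depended on CTL 3. Without it Glul (0.526) and Pygb (0.588) stayed under 0.59, and the others lay above it, from 0.591 for Parp8 to 0.735 for Anks1b.

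**Figure D3:**
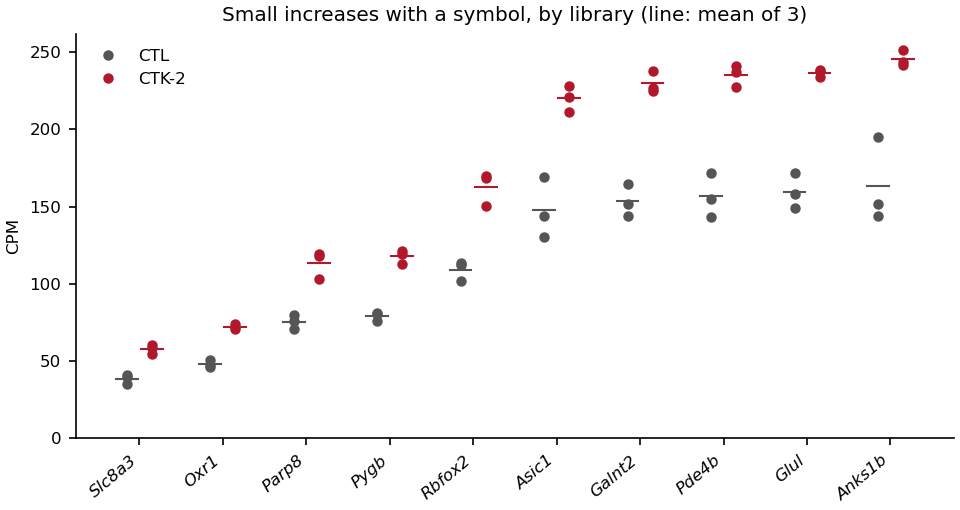
CPM of the 10 named small increases in each CTL (grey) and CTK-2 (red) library, with a line at the mean of 3. In all 10 genes the lowest CTK-2 library lay above the highest CTL library, and CTL 3 was the highest CTL library of Anks1b, Asic1, Galnt2, Oxr1, Pde4b and Slc8a3.

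In the interaction of cytokines and galinex, 0 of 13348 genes passed an adjusted p of 0.05 with the quasi-likelihood test of edgeR. An unadjusted p under 0.05 was found for 376, a smaller share than the 0.05 that no interaction at all would give. With 3 libraries per group this does not show that the effects were equal.

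The called genes were unevenly spread over the genome. On chromosome 20, 76 of 368 tested genes (20.7%) were higher. Chromosomes 15 (15.5%), 14 (14.9%) and 4 (14.7%) followed, and among the autosomes and X the share was lowest on chromosomes 12 (8.43%) and X (9.38%). The share called lower ranged there from 3.87% on chromosome 19 to 7.83% on chromosome 16. None of the 18 genes of the mitochondrial chromosome and of the 4 on chromosome Y passed, and the mitochondrial log2 fold changes lay between -0.27 and 0.20.

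**Figure D4:**
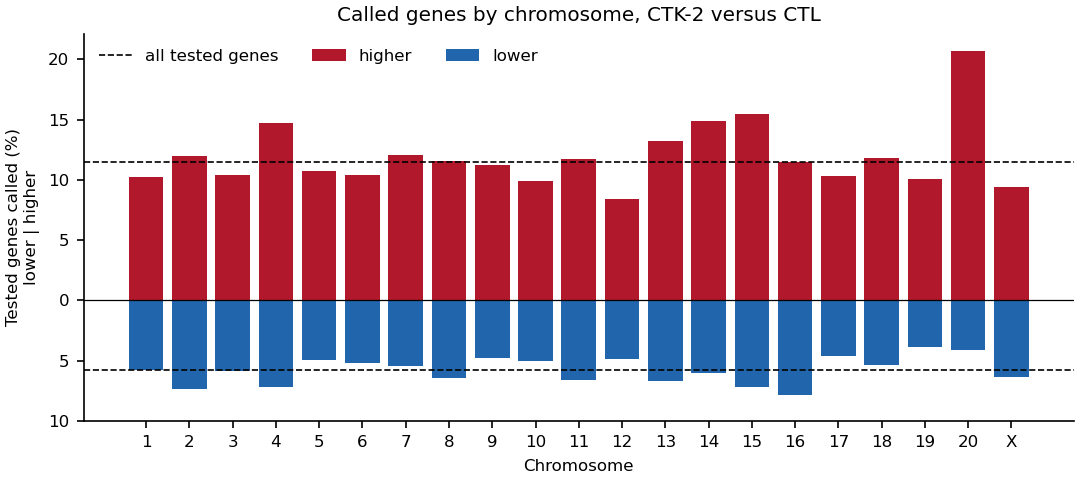
Percentage of tested genes called higher (red, upward) and lower (blue, downward) in CTK-2 versus CTL on each chromosome, with dashed lines at the 11.5% and 5.79% of all tested genes. Chromosome 20 reached 20.7% higher, the other autosomes and X lay between 8.43% and 15.5%, and chromosomes Y and MT had no call.

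Genes called higher often lay next to each other. The next tested gene along the chromosome was also higher for 21.9% of the genes called higher, against 10.1% of those that did not pass. After a gene called lower, the next was lower in 12.6%, against 5.12%. At least 4 consecutive tested genes were called higher in 21 places, which held 117 genes or 7.61% of the calls. There were 5 such runs of decreases with 22 genes, 2.85% of the calls. Gene families whose copies share sequence lie in several of these runs, and pairs that mapped to more than one place were not counted, so their levels are uncertain. Some run members also overlap by position, among them Repin1 within Zfp775, Cd81 within Tssc4 and RT1-N2 within RT1-CE3. Such neighbours are not separate places, and pairs assigned to several genes were not counted either.

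The longest run lay on chromosome 20 (3257123 to 3559486 of mRatBN7.2), in the rat MHC. All 10 of its genes were without a symbol, with log2 fold changes from 3.17 to 4.55. Another run (4548666 to 4710432) held 9 genes, among them the class II genes RT1-Db1, RT1-Ba and RT1-Bb and the peptide transporter genes Tap1 and Tap2. Another (2606621 to 2776154) held the class I genes RT1-CE3, RT1-N2, RT1-N3, RT1-S3, RT1-T24-4 and RT1-T24-1. The 2 Mb window with the most increases in the genome started at 2928378 on this chromosome and had 31 of 76 tested genes higher.

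RT1-Ba illustrates the class II genes, with 0.172, 0 and 2.27 CPM in CTL against 66.9, 71.2 and 63.2 CPM in CTK-2. RT1-N2 of class I had 0, 0 and 7.78 CPM in CTL against 159, 144 and 147 CPM in CTK-2. In both, CTL 3 held nearly all the untreated counts.

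On chromosome 2 (231237748 to 231747227), 9 consecutive genes were higher. They include the guanylate-binding protein genes Gbp5, Gbp4, Gbp2 and Gbp3, which encode GTPases of cell-autonomous defence, and end with Kyat3, an aminotransferase. Gbp5 had 0.172, 0 and 5.19 CPM in CTL against 531, 596 and 517 CPM in CTK-2. Kyat3 was already counted in CTL, at 24.9, 25.6 and 23.2 CPM, and reached 102, 102 and 94.5 CPM (log2 fold change 2.02, standard error 0.080). Its CTL libraries were alike, unlike those of its neighbours.

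Other runs joined defence genes with neighbours of different function. On chromosome 12 Oas1a, Oas1k and Oas2, which encode oligoadenylate synthetases that sense double-stranded RNA, lay in a run of 5. On chromosome 6 a run of 5 took in the antiviral genes Rsad2 and Cmpk2 together with Rnf144a and Sox11, a neural transcription factor. Sox11 had 39.7, 44.5 and 38.4 CPM in CTL against 149, 136 and 129 CPM in CTK-2 (log2 fold change 1.76, standard error 0.076).

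On chromosome 4 (77548847 to 78049367) Zfp775, Repin1, Gimap8, Tmem176b, Tmem176a and Gpnmb were higher. Repin1, a zinc finger gene, had 95.7, 102 and 131 CPM in CTL against 522, 481 and 494 CPM in CTK-2. A run on chromosome 1 (197730698 to 198254980) held Igf2, Tssc4 and Cd81. Igf2, an insulin-like growth factor, had 3.27, 2.78 and 6.97 CPM in CTL against 80.9, 87.0 and 81.5 CPM in CTK-2 (log2 fold change 4.22, standard error 0.19).

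The 5 runs of decreases carried smaller changes. A run on chromosome X held Rab9b, Tmsb15b2 and Zcchc18. Rab9b, a small GTPase, had 170, 163 and 165 CPM in CTL against 68.8, 79.2 and 77.4 CPM in CTK-2 (log2 fold change -1.14, standard error 0.063). Tmsb15b2 had a log2 fold change of -0.84 and Zcchc18 one of -0.97, and the groups did not overlap in these 3 genes.

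A run on chromosome 13 (43794029 to 43939107) held Tmcc2, Dstyk and Rbbp5, and Nfasc lay in the same 2 Mb window, where 8 of 24 genes were lower. Tmcc2, a membrane protein gene, had 436, 456 and 410 CPM in CTL against 169, 185 and 183 CPM in CTK-2. The call of Rbbp5 (log2 fold change -0.62) was lost without CTL replicate 3 (-0.59, short of the threshold) and without CTK-2 replicate 1 (-0.57), and with total counts in place of TMM (-0.59, short of it too). On chromosome 5 Msantd3, Tmeff1, Cavin4 and Plppr1 were lower, and in the same window Grin3a, a glutamate receptor subunit. Msantd3 (-0.66) was at -0.56 without CTK-2 replicate 2 and then not called. Further decreases lay together on chromosome 11 (Dcbld2, Cmss1, Tbc1d23) and on chromosome 6 (Sec23a, Gemin2).

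Longer genes were called more often. Genes were also cut into 5 bins by exonic length. In the shortest bin (median 1.19 kb), 8.35% were higher and 2.36% had a small increase. In the longest bin (median 6.77 kb) the shares were 15.1% and 14.8%. The share called lower changed less, from 5.17% to 6.29%. Median CPM rose over the same bins from 9.64 to 62.5, and the part of the counts in this trend was not tested.

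CTL 3 lay towards CTK-2 in most of the genes called higher or lower. It was the highest of the 3 CTL libraries for 60.5% of the genes called higher, where CTL 1 was highest for 19.1% and CTL 2 for 18.6%. Among the genes called lower it was the lowest for 68.2%. In genes that did not pass it was the highest for 33.5% and the lowest for 32.4%. Its median difference from CTL 1 and CTL 2 on the log2 scale, taken as log2(CPM + 0.5), was 0.22 in genes called higher and -0.15 in those called lower. The same side was seen in small changes, with 0.069 for increases and -0.064 for decreases.

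In log2 units the excess of CTL 3 was larger for larger responses, with a median of 0.12 for genes with log2 fold changes from 0.59 to 1 and 0.99 for those of at least 4. As a share of the log2 distance from CTL 1 and CTL 2 to CTK-2 it differed less, with medians of 15.3%, 16.0%, 22.8% and 22.0% in the 4 classes of increases (0.59 to 1, 1 to 2, 2 to 4 and at least 4) and of 16.1%, 13.6% and 17.3% in the 3 classes of decreases. The CTL libraries of the genes called higher had a median SD of 0.25 on the log2 scale, against 0.13 in CTK-2 and 0.14 between CTL 1 and CTL 2. The median of all tested genes was 0.14 in CTL.

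In CPM, a linear scale, single genes differed in where CTL 3 lay. For B2m, the light chain of MHC class I, CTL 3 had 792 CPM where CTL 1 had 21.5 and CTL 2 had 27.0, and the CTK-2 libraries had 2933, 3304 and 3111 CPM. That is 24.8% of the distance from CTL 1 and CTL 2 to CTK-2 in CPM. Tap1 (7.05, 8.15 and 207 CPM in CTL against 841, 825 and 819 CPM in CTK-2) lay at 24.3% and Trim21, a ubiquitin ligase that binds antibodies, at 22.8%. Parp14 and Irf8, a poly-ADP-ribosyltransferase and an interferon regulatory factor, both lay at 7.89%. The guanylate-binding gene Gbp5 lay at 0.931% and the chemokine gene Cxcl10 at 0.349%, with 0, 0 and 0.649 CPM in CTL against 175, 197 and 185 CPM in CTK-2.

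CTL 3 lay between CTL 1 and CTL 2 in other strongly changed genes. Gsdmd, which encodes the pore-forming gasdermin D, had 1.20, 2.78 and 1.95 CPM in CTL against 25.9, 23.1 and 23.7 CPM in CTK-2. Sox9, a glial transcription factor, had 16.3, 15.3 and 16.1 CPM in CTL against 67.1, 55.6 and 65.8 CPM in CTK-2. Among decreases, Erbb3, the neuregulin receptor, had 113, 118 and 60.3 CPM in CTL against 16.1, 15.3 and 14.6 CPM in CTK-2, so that CTL 3 lay apart there too.

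**Figure D5:**
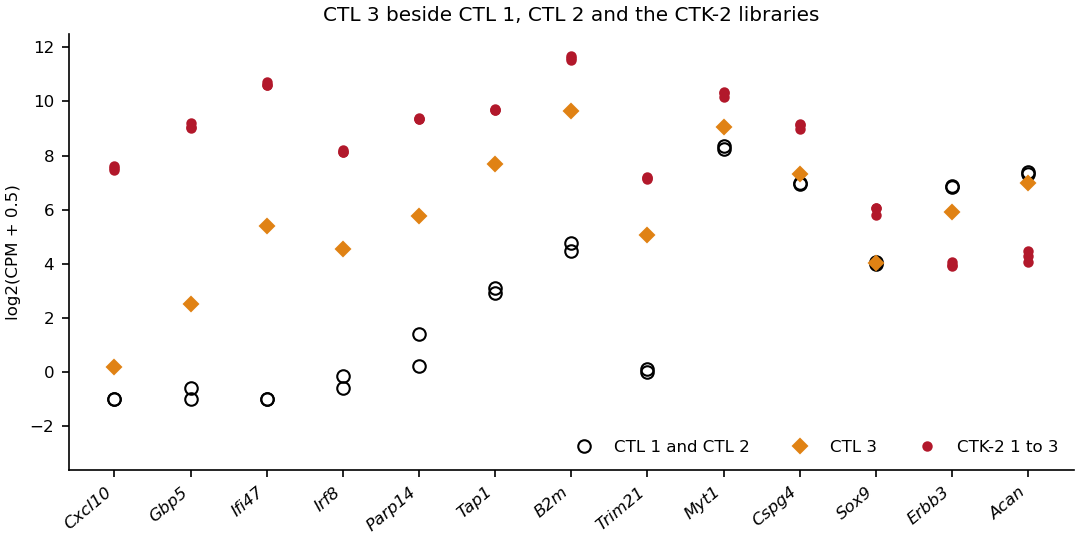
Levels of 13 genes on the scale log2(CPM + 0.5) in CTL 1 and CTL 2 (open circles), CTL 3 (orange diamonds) and the 3 CTK-2 libraries (red). CTL 3 sat well above CTL 1 and CTL 2 in Gbp5, Ifi47, Irf8, Parp14, Tap1, B2m and Trim21. It sat above them by less in Cxcl10, Myt1 and Cspg4, level with them in Sox9, and below them in Acan and, further, Erbb3.

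Leaving out CTL 3 gave 1625 higher and 890 lower genes. Of the original calls 2180 were kept, 131 were lost, 335 were gained and 0 changed direction. The absolute log2 fold change was larger in 81.1% of the kept calls, by a median of 0.075 over all of them. B2m had a log2 fold change of 3.47 (adjusted p = 0.022, standard error 1.14) with all libraries and 7.01 without CTL 3. Without CTL 1 or CTL 2 its adjusted p was 0.063 and 0.062, and the call was lost. Tap1 went from 3.46 (standard error 0.95) to 6.77 without CTL 3.

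The upstream sequences of 4 of these genes are shown because the place of CTL 3 differed so much between them. In CPM it lay at 24.8% and 24.3% of the distance to CTK-2 for B2m and Tap1. For Gbp5 and Cxcl10 it lay at under 1%. On the scale log2(CPM + 0.5) the excess of CTL 3 was 5.01, 4.68, 3.29 and 1.20 in these 4 genes. Gbp5 (0.172 and 0 CPM) and Cxcl10 (0 and 0 CPM) lay below the added 0.5 in CTL 1 and CTL 2. Their excess therefore depends on that added value, and the order of the 4 genes on this scale is uncertain. Each sequence runs 5′ to 3′ over the 250 bases before the start of the gene, from RefSeq on the build GRCr8 and not the build of the counts. Capitals mark matches to the ISRE core GAAANNGAA on either strand and to the κB motif, which may overlap.
B2m, chr3:129549080-129549329, plus strand: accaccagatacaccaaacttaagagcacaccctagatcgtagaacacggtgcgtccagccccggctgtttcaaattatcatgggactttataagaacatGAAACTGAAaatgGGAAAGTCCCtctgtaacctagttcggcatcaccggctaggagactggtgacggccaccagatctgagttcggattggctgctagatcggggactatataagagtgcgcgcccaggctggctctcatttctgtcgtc
Tap1, chr20:4668544-4668793, minus strand: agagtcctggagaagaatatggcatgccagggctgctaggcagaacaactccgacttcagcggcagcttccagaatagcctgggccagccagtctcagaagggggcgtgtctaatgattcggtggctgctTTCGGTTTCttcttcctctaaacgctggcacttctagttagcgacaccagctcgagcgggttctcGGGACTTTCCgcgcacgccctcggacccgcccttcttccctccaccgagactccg
Gbp5, chr2:233910749-233910998, plus strand: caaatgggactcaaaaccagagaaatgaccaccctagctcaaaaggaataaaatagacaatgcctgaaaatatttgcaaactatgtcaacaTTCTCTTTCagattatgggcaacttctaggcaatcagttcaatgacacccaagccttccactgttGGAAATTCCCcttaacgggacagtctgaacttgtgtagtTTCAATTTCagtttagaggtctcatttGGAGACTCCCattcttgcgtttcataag
Cxcl10, chr14:15988816-15989065, plus strand: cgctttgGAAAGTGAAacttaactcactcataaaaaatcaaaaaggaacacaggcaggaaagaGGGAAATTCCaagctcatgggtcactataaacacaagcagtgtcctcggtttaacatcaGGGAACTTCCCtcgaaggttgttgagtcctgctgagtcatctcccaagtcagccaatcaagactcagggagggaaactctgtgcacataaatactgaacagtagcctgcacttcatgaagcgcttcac
All 4 windows held both motifs.

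The ISRE core stood more often upstream of the larger increases. Windows of 300 bases (250 before to 50 after the start) were found by gene identifier for 1388 of the 1744 called genes with a symbol. The ISRE core, searched on both strands like the other motifs, stood in 42.4% of 85 windows of genes with log2 fold changes of at least 4, in 20.6% of 160 between 2 and 4, in 6.08% of 296 between 1 and 2 and in 7.43% of 377 between 0.59 and 1. In all 27457 promoters of the table it stood in 9.50%, and in 5.11% of the 470 windows of genes called lower. The κB motif was found in 24.7%, 15.6%, 14.2% and 12.7% of the 4 classes of increases, in 9.57% of the decreases and in 7.60% of all promoters.

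The GAS element TTCNNNGAA stood in 17 of the 85 windows of the largest increases, in 6.25%, 8.45% and 6.37% of the smaller ones, in 5.74% of the decreases and in 8.68% of all promoters. The sterol element TCACNCCAC stood in 1.13% of all promoters, in 0.851% of the decreases and in 0 of 14 windows of cholesterol genes. Of 29 windows of interferon-stimulated genes, 19 held the ISRE core. A match is a match of letters only, and no match says nothing about a factor.

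Of 23 receptor, kinase and adaptor genes in the list of cytokine signalling, 7 were named. All 7 were higher, against 65.1% of all genes with a symbol, and the direction of the other members is not known. Jak1 had 115, 121 and 117 CPM in CTL against 180, 186 and 190 CPM in CTK-2 (log2 fold change 0.66, standard error 0.055). Tnfrsf1a, the widely expressed TNF receptor, had a log2 fold change of 0.64, which became 0.58 without CTL replicate 2 and was then not called, and Tnfrsf1b, the inducible one, had 3.35. Traf2, Ifngr2, Jak2 and Myd88, the further adaptor, receptor and kinase genes, lay between 0.83 and 1.49.

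Of 7 ligand genes with a symbol, 5 were higher and 2 lower. Il15, a growth factor of lymphocytes, had 1 count in CTL, in CTL 3, and 85 counts in CTK-2. Il1b, itself part of the cocktail, had 1 count in CTL and 3.56, 0.909 and 2.04 CPM in CTK-2. Csf1, a macrophage growth factor, had 24.8, 28.6 and 90.6 CPM in CTL against 214, 233 and 233 CPM in CTK-2, so that CTL 3 lay apart. Vegfa, an angiogenic factor, was higher by 0.67 on the log2 scale, which became 0.59 and was just short of the threshold without CTL replicate 1. Igf2 is described above. The EGF receptor ligands Hbegf and Tgfa were lower, at -1.58 and -0.94, while the receptor gene Egfr was higher at 2.64. Egfr was rarely counted, with 1.03, 1.59 and 1.95 CPM in CTL against 8.78, 9.45 and 10.6 CPM in CTK-2. Tgfa had 536, 527 and 457 CPM in CTL against 270, 256 and 268 CPM in CTK-2.

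Of 9 named growth factor receptors 6 were higher, near the 65.1% of all genes with a symbol, 2 were lower and 1 had a small increase (Lrp4). Met, the hepatocyte growth factor receptor, was at 2.75, Lifr at 1.36 and Igf1r at 0.71, and Erbb3 was at -2.65 and Fgfr3 at -1.20. All 8 named complement and acute-phase genes were higher. Serping1, the C1 inhibitor, had 0, 0 and 0.973 CPM in CTL against 88.3, 82.7 and 73.2 CPM in CTK-2, and C1r, C1s, C2, Lcn2, A2m, Cp and Pros1 had log2 fold changes between 1.58 and 5.45. Without CTL 3 those of C1r and C1s went from 5.45 to 8.03 and from 4.44 to 5.81.

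In the cell death list 13 of 14 named members were higher. Several genes of inflammatory death and survival went from nearly no counts in CTL to a low level. Zbp1, a nucleic acid sensor, had 0, 0 and 0.324 CPM in CTL against 14.0, 15.6 and 13.0 CPM in CTK-2, and Birc3, an inhibitor of apoptosis, had 1 count in CTL against 3.35, 2.00 and 3.71 CPM. Casp1, which activates IL-1β, had 1 count in CTL against 2.51, 2.36 and 1.11 CPM. Of the redox list only 4 members could be named, and all were higher by 0.60 to 1.11. The calls of Hmox1 and Mt2A among them were not kept without single libraries, Hmox1 at 0.74 without CTL replicate 3 and 0.79 without CTK-2 replicate 2, and Mt2A at 0.53 to 0.58 without CTL replicate 1, CTK-2 replicate 2 or CTK-2 replicate 3.

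The OPC marker, lineage factor, matrix and channel lists had members in both directions, in shares near the 65.1% higher and 32.9% lower of all genes with a symbol. OPC stage markers summed over 7 named members to 7582, 7189 and 7142 CPM in CTL against 7343, 7041 and 7439 CPM in CTK-2, groups that overlapped. Cspg4, Cspg5, Ptprz1 and Pdgfra rose, and Matn4, Vcan and Tnr fell. Nkx2-2 (0.73) was the named member of the newly formed oligodendrocyte list. Of 31 lineage transcription factors in the list 12 were named, and 7 of these were higher, led by Sox9 at 1.98 and Sox11. The 5 lower ones included St18 at -1.57 and the inhibitor genes Id1 at -1.35 and Id2 at -0.70. Of 34 myelin and late oligodendrocyte genes in the list 11 were named. Among these 9 were lower, against 32.9% of all genes with a symbol, and 2, Septin4 and Plekhh1, higher. The direction of the unnamed members is not known.

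Acan, the gene of the matrix proteoglycan aggrecan, had 168, 161 and 126 CPM in CTL against 16.5, 18.9 and 21.9 CPM in CTK-2. Of 15 named matrix and adhesion genes 9 were higher, among them Icam1 at 4.74 and Fn1, fibronectin, at 2.10, and 6 lower. Of 10 named channels and glutamate receptors 7 were higher, with Kcna2, a potassium channel, at 1.43, and 3 lower, Grin3a, Slc1a1 and Scn1a. All 20 named cholesterol genes were lower, and 12 of 13 fatty acid genes. All 38 named interferon-stimulated genes and all 9 chemokine genes were higher.

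Larger families show the mix among the called genes. Solute carriers were divided, with 19 higher, 16 lower and 1 small increase, and Slc27a6 fell most, by 3.41 on the log2 scale. Of 23 named zinc finger genes 20 were higher, by a median of 0.78 over all 23, and of 9 Trim genes 7, with Trim5, Trim21, Trim25 and Trim34 above 3. Of 7 named kinesin genes 5 were lower. Housekeeping complexes were nearly absent from the named calls. Mrpl42 (-1.04) and Mrps34 (0.71) were the mitochondrial ribosomal genes, Atp5f1b the ATP synthase gene, Snrpd1 (-0.62) the splicing gene, Tars1 (-0.62) and Wars1 (1.33) the tRNA synthetases and Psme1 and Psme2 (2.95 and 2.59) the proteasome genes, which encode the activator that IFN-γ induces and which stood at 4.47 and 3.52 without CTL 3. Snrpd1 was at -0.57 and -0.56 without CTL replicate 2 or CTK-2 replicate 1, Tars1 at -0.56 without CTL replicate 2, and with total counts in place of TMM they were at -0.59 and -0.58, and neither was called in any of these. Initiation factor genes were 2 higher, Eif2ak2 (the RNA-activated kinase PKR) and Eif4e3, and 1 lower, Eif2b1. No cytosolic ribosomal, complex I, chaperonin, vacuolar ATPase, nucleoporin or core proteasome gene, and no constitutive catalytic subunit, was named.

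Markers of other cell types could be named only where the study had called them, so every named one had changed. Their sums do not show how the markers of a cell type moved as a whole. Of 18 microglia and macrophage markers 5 had a symbol, and their sum was 2.24, 4.37 and 10.9 CPM in CTL against 26.6, 19.8 and 20.2 CPM in CTK-2. They were Ptprc, C1qc, Spi1, P2ry12 and Csf1r, whose log2 fold changes ran between 1.69 and 2.54, and the groups did not overlap in 4 of the 5. Csf1r lost its call without CTL replicate 1 (1.37), CTL replicate 2 (1.36) or CTK-2 replicate 1 (1.32). Which of the other 13 markers were at 0 is not known, for want of symbols. Among immune genes such as Il1b and the complement list, the part of these cells in the increases was not tested.

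Of 10 astrocyte markers Aldoc and Fgfr3 were named, and their sum fell from 306 to 388 CPM in CTL to 194 to 196 CPM in CTK-2. Tubb3, a neuron marker, was at 81.7 to 89.0 CPM in CTL against 156 to 189 CPM in CTK-2. Kdr, an endothelial marker, and Col1a2, a fibroblast marker, were at most 1.59 CPM in CTL and between 3.97 and 7.97 CPM in CTK-2. In bulk RNA, more cells of a type and more RNA in each cell cannot be told apart.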

How the data were processed

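RNA was sequenced from 12 libraries of primary rat OPC cultures. The count values were deposited by the authors as whole read pairs per Ensembl gene, neither normalized nor filtered. The labels give FastQC and STAR, and per the file headers featureCounts 2.0.0 counted reversely stranded pairs with both ends mapped on the exons of mRatBN7.2, Ensembl release 112. Pairs with several places or genes were left out. The option to ignore duplicates was set, and whether duplicates had been marked is not given in the sources used here.

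Genes averaging 5 counts or more were normalized by TMM and fitted with edgeR 4.0.16 in R 4.3.3, with 1 mean for each of 4 groups. Benjamini-Hochberg adjustment ran over all 13348 genes. Standard errors were taken as the size of the log2 fold change over the root of F. The fit was checked on data drawn with known changes. Members and lists were chosen with earlier results of these data known. Alternatives were DESeq2 1.42.0, its size factors, total counts, other filters, a replicate block, models of 6 libraries, glmTreat and each replicate left out.

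The tables hold no symbols. A supplementary list of the study's own calls was matched by mean and log2 fold change, within 0.0001 of the mean and 0.01 of the log2 fold change, which placed 1784 of 1786 entries. Of 1765 that could be placed on a chromosome by RefSeq as well, 1764 agreed, and the other was dropped. Its values were used for nothing else. Named genes were up to 4 members of each list by adjusted p, the 10 leading small changes, the 10 most counted calls in each direction, the leaders of each expression bin, members of runs and the 10 largest excesses of CTL 3. Other list members and genes shown with a fold change only were added from the lists after their values were seen. The lists cover cytokine receptors, ligands, complement, cell death, redox, interferon-stimulated, chemokine, cholesterol, fatty acid, lineage, myelin, channel, matrix, growth factor receptor, cell marker and housekeeping genes.

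The floor for a count of 0 is 3 counts over the group and covers counting error only. Some genes are not reported here.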

Additional observations from a re-analysis of the deposited data

How the results depend on the processing

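Other normalizations, filters and tests kept the number of genes called higher and lower within 1.5 times, except edgeR's glmTreat, which tests against the fold threshold itself and called 905 higher and 331 lower genes. DESeq2 called 1407 and 697, with 37 genes left without an adjusted p. Leaving out 1 library at a time gave 1418 to 1625 higher and 691 to 890 lower genes, and 2313 to 2829 small changes. Runs of at least 3 consecutive genes numbered 76, against 26 of at least 4. With total counts the median of all genes was 0.034 and 44.5% of the small changes were higher. No pairing by replicate number is stated for the libraries. Correlations of deviations between libraries of the same number were low, at 0.039, 0.071 and 0.033, which does not exclude a pairing. Every CTL library correlated best with its own number in CTK-2, a hint from the data and not the design. With the replicate block 1540 genes were higher, 780 lower and 3100 had small changes. Without GAL replicate 1, 99.1% of the small changes had the same sign with galinex. Of 207 named genes 167 lost no call under any setting that gave them a result, and none turned direction. With glmTreat 157 were kept and 40 were lost. The rest were the named small increases, which had no call at the fold threshold to keep or lose. Named small increases that rose above the fold threshold without CTL 3 are counted among the 167. The 16 named genes without a DESeq2 adjusted p, B2m and Tap1 among them, have no DESeq2 value here. Depth limits changes under 0.93 in the lowest bin, and symbols limit the lists.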
